A study of Danio rerio with 5 samples.

Results

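Interferon-induced antiviral effectors and cytosolic RNA sensors were compared between EGFP+ tumor cells of 2 zebrafish neuroblastoma genotypes. The members were 10 genes given by symbol: the Mx GTPase genes *mxa*, *mxb*, *mxc* and *mxe*, the effector genes *isg15*, *rsad2* and *ifit8*, and the sensor genes *ifih1*, *ddx58* and *dhx58*. Of these, 9 were matched among the 30647 genes listed for each library, and *ddx58* is not analysed here because neither that symbol nor *rigi*, its current RefSeq name, was matched. By RPKM all 9 were higher in both *TATA/TATA* libraries than in any *lmo1*-/- library, as were 54.2% of all tested genes. In 7 of them the increase passed the test across all genes, where 19.9% of all tested genes did, and none was called lower. A minimum level was needed for testing, and 6 of the 9 reached it only through the *TATA/TATA* libraries. The *lmo1*-/- libraries differed widely among themselves in these genes. Of the 3, replicate 3 was the highest by RPKM in 8 of the 9 genes and in 55.2% of all tested genes.

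RNA-Seq of sorted EGFP+ cells gave 3 *lmo1*-/- libraries and 2 *TATA/TATA* libraries. Tumors of both genotypes carried the transgenes dβh:*EGFP* and dβh:*MYCN*, in which the dopamine β-hydroxylase promoter drives EGFP and human MYCN in the sympathoadrenal lineage, on the AB background strain. The *lmo1*-/- fish came from a single line with a deletion in the second exon of *lmo1*, and the *TATA/TATA* fish from a knock-in line whose GATA-binding site within an intron of *lmo1* had been replaced by genome editing, which gives the genotype its name. The *GATA/GATA* genotype is not analysed here, so both groups carried an edited *lmo1* locus and neither was a wild-type control. Replicates are numbered in the labels and nothing there says whether they came from separate fish, so p-values measure the spread between these libraries, which may in part be technical. Tumors were taken from juvenile fish, and the exact age at collection of each tumor is not given in the sources used here.

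Vertebrate cells detect viral RNA in the cytosol with helicases of the RIG-I family, which signal through the mitochondrial adaptor MAVS to the transcription factors IRF3 and IRF7 and so induce interferon. Secreted interferon binds its receptors on the same and on neighboring cells, and signaling from the receptors then switches on many interferon-stimulated genes, among them the Mx GTPases, ISG15, viperin, the IFIT proteins and the RNA sensors themselves. Leukocytes carry parts of this machinery at high basal levels, and zebrafish have their own set of type I interferons, named interferon phi.

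Between 48144549 and 55782865 reads were counted on genes per library. Expression is given as RPKM, read counts scaled by exon length and by mapped reads, with the library totals of the authors, and 1 count on an exon length of 1 kb equals 0.0129 to 0.0156 RPKM. Fold changes are log2 ratios of *TATA/TATA* over *lmo1*-/- from edgeR with TMM normalization (which scales each library so that most genes do not change), and a gene is called where its Benjamini-Hochberg adjusted p over the 13484 genes tested is under 0.05. In this comparison 19.9% of the tested genes were called higher and 16.7% lower in *TATA/TATA*. With the authors' library totals in place of TMM, the median log2 fold change of all tested genes moved from −0.05 to 0.41, a shift of 0.46. The edited gene *lmo1* was at 24.6, 21.0 and 41.9 RPKM in *lmo1*-/- and at 13.6 and 12.7 RPKM in *TATA/TATA*. Reads over all its exons are counted, so these values do not check the frameshift label. The sympathoadrenal markers *th* and *dbh*, enzymes of catecholamine synthesis, were high in every library. *th* was at 603, 546 and 884 RPKM in *lmo1*-/- and at 465 and 454 RPKM in *TATA/TATA*, and *dbh* at 546, 514 and 688 RPKM against 419 and 369 RPKM. Both were called lower in *TATA/TATA* (edgeR adjusted p = 0.00868 and 0.00472), as were 7 of the 20 tested sympathoadrenal markers in all, while 2 were called higher. The call of *th* was lost with the authors' library totals (adjusted p = 0.0954), and those of *th* and *dbh* without either *TATA/TATA* library (adjusted p = 0.0684 to 0.110).

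**Figure D1:**
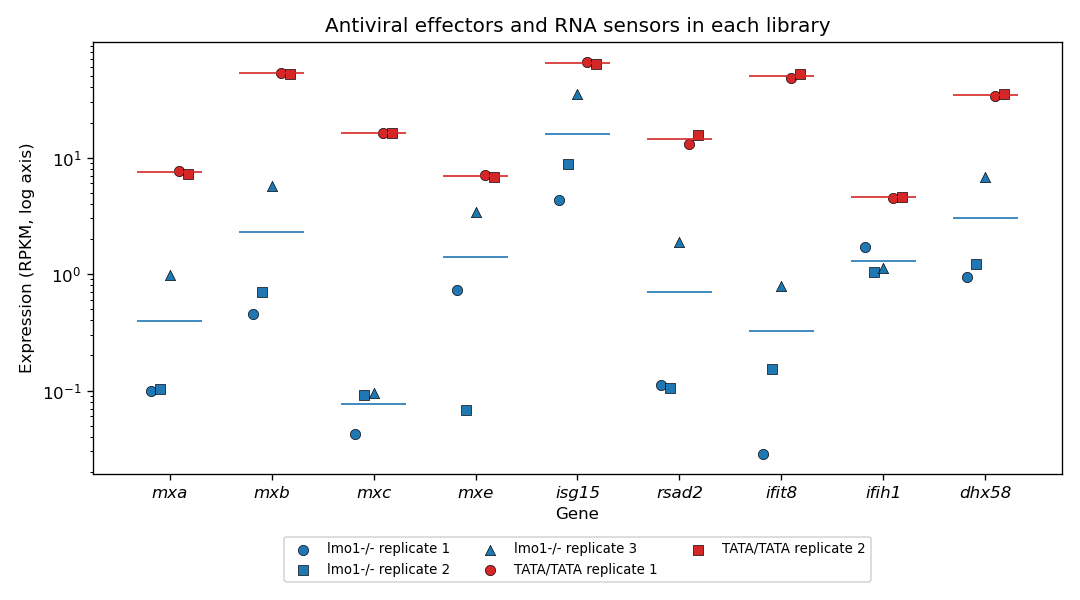
Expression of the 9 genes in each of the 5 libraries in RPKM on a log axis, with the 3 *lmo1*-/- libraries in blue, the 2 *TATA/TATA* libraries in red and a horizontal line at each genotype mean. The *TATA/TATA* points lie above every *lmo1*-/- point for each gene, and the *lmo1*-/- points spread over a far wider range than the *TATA/TATA* points. The median log2 range over all tested genes was also wider in *lmo1*-/- (0.59, 3 libraries) than in *TATA/TATA* (0.090, 2 libraries).

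Most of the 9 genes were expressed above the middle of the tested genes in *TATA/TATA* tumors and in the lower part of their range in *lmo1*-/- tumors, with *ifih1* at percentile 46.0 in *TATA/TATA* and *isg15* at percentile 83.6 in *lmo1*-/- as exceptions. Summed over the members, expression came to 8.40, 12.23 and 55.9 RPKM in *lmo1*-/- replicates 1, 2 and 3, where the *TATA/TATA* libraries had 250.8 and 253.6 RPKM. The median member lay at percentile 79.0 of tested genes by mean RPKM in *TATA/TATA* and at percentile 22.4 in *lmo1*-/-. The number of members at or above 1 RPKM was 2, 3 and 6 in the *lmo1*-/- libraries and 9 in each *TATA/TATA* library. A gene entered the test with at least 1 RPKM in 2 libraries, and 6 of the 9 met that only through the *TATA/TATA* libraries, so their count of calls is a description and not support. By RPKM, 54.2% of all tested genes lay higher in both *TATA/TATA* libraries than in every *lmo1*-/- library, and against that background stand 9 of 9 members. The 7 members called higher stand against the 19.9% given above.

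The Mx proteins are dynamin-like GTPases that trap viral nucleocapsids, and zebrafish have a family of such genes. *mxa* had 25, 25 and 272 counts in *lmo1*-/- replicates 1, 2 and 3 and 2259 and 2053 counts in the *TATA/TATA* libraries. This corresponded to 0.0995, 0.103 and 0.980 RPKM against 7.65 and 7.26 RPKM. Replicate 3 alone of the *lmo1*-/- libraries stood out, at 9.70 times the mean of the others, and it was still far below both *TATA/TATA* libraries. The mean was 0.394 ± 0.507 RPKM (SD, n = 3) in *lmo1*-/- and 7.45 ± 0.279 RPKM (SD, n = 2) in *TATA/TATA*. edgeR gave a log2 fold change of 3.88 ± 0.93 (SE) with an adjusted p of 0.0213. The call was lost without *lmo1*-/- replicate 2 (adjusted p = 0.0645) and without *TATA/TATA* replicate 1 or 2 (adjusted p = 0.0678 and 0.0645).

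*mxb*, which neighbors *mxa* in RefSeq's zebrafish assembly GRCz12tu with 0 protein-coding genes between, had the same order of libraries at a higher level. It was at 0.458, 0.704 and 5.68 RPKM (69, 103 and 946 counts) in *lmo1*-/- and at 53.4 and 52.3 RPKM (9463 and 8875 counts) in *TATA/TATA*. Again only replicate 3 of *lmo1*-/- departed from the bottom. In edgeR it rose by 4.18 ± 0.99 on the log2 scale (SE, adjusted p = 0.0204), and the call was lost without *lmo1*-/- replicate 2 (adjusted p = 0.0716) and without either *TATA/TATA* library (adjusted p = 0.0586 each). The ratio of *mxb* to *mxa* RPKM was 4.60, 6.87 and 5.80 in *lmo1*-/- and 6.98 and 7.20 in *TATA/TATA*, so it stayed between 4.60 and 7.20 in libraries that differed far more in the level of both genes.

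*mxc* had the largest log2 fold change of the members. It was at 0.0420, 0.0920 and 0.0950 RPKM in *lmo1*-/-, which is 8, 17 and 20 counts, and at 16.4 and 16.2 RPKM in *TATA/TATA*, which is 3672 and 3476 counts. Here replicate 3 of *lmo1*-/- did not stand apart from replicate 2, and all 3 libraries were below 1% of the *TATA/TATA* mean. Its log2 fold change was 7.27 ± 0.34 (SE, edgeR adjusted p = 0.000245), which ranked 103 among the 13484 tested genes, and the call held under all 13 alternatives run.

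*mxe*, the neighbor of *mxc* in GRCz12tu with 0 protein-coding genes between, was the most variable member in *lmo1*-/-. Its 196, 18 and 1015 counts gave 0.723, 0.0685 and 3.39 RPKM, against 7.02 and 6.86 RPKM (2236 and 2094 counts) in *TATA/TATA*. All 3 *lmo1*-/- libraries differed from each other, with replicate 2 the lowest and replicate 3 at 48.8% of the *TATA/TATA* mean. The log2 fold change of 1.98 ± 1.13 (SE) did not pass the edgeR test (adjusted p = 0.224). Without *lmo1*-/- replicate 3 it was 3.68 and passed (adjusted p = 0.0333), although the libraries of the genotypes do not overlap in either case.

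The rest of the Mx family did not share a direction, and *mxf* and *mxg* are given here although they were chosen after their values were seen. *mxd* was at 44.7, 40.5 and 38.7 RPKM in *lmo1*-/- and at 47.6 and 49.1 RPKM in *TATA/TATA*, which edgeR put at −0.24 ± 0.18 on the log2 scale (SE, adjusted p = 0.342) and which became 0.23 with the authors' library totals. It was thus the only Mx gene near its *TATA/TATA* level in all *lmo1*-/- libraries, and it made up 95.5%, 94.5% and 77.3% of the summed Mx RPKM there against 34.3% and 35.4% in *TATA/TATA*. *mxf* resembled *mxc*: it had 4, 5 and 8 counts in *lmo1*-/- and 1021 and 1014 counts in *TATA/TATA*, a log2 difference of 6.86 ± 0.29 (SE, edgeR adjusted p = 0.000216). This difference rests on few *lmo1*-/- reads, and *mxf* reached the level needed for testing only through the *TATA/TATA* libraries. *mxg* went the other way and fell in *TATA/TATA*, from 0.743, 1.33 and 1.17 RPKM to 0.292 and 0.472 RPKM, by a log2 difference of −1.97 ± 0.44 (SE, edgeR adjusted p = 0.0167), and of −1.5 with the authors' library totals. The call of *mxg* was lost without *TATA/TATA* replicate 1 or 2 (adjusted p = 0.139 and 0.0671). Mx genes are paralogs, and how reads were divided between similar copies was not tested.

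**Figure D2:**
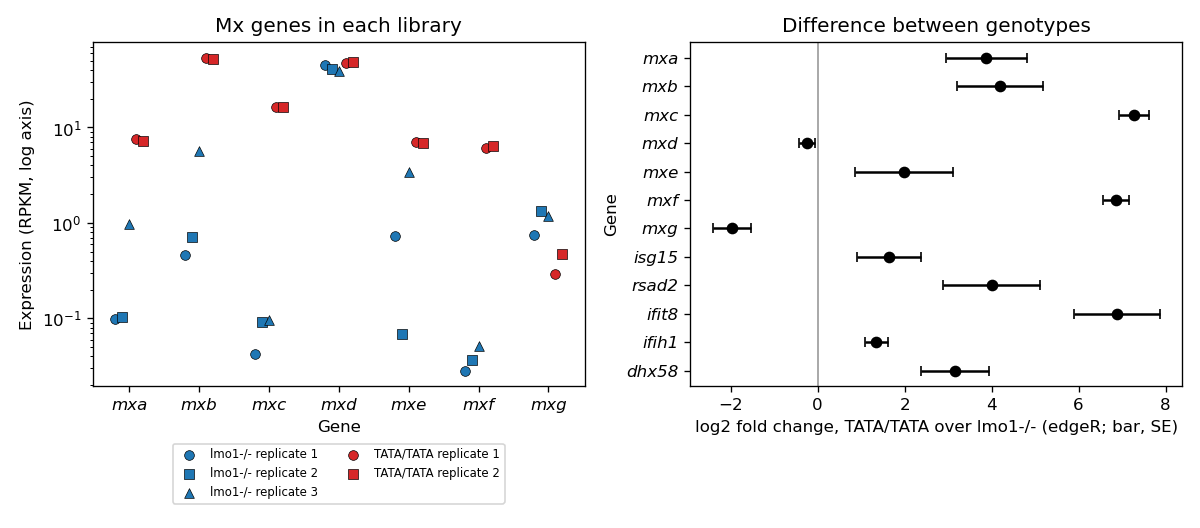
Left, RPKM on a log axis of the 7 Mx genes in each library, by genotype and replicate. Right, log2 fold changes of *TATA/TATA* over *lmo1*-/- with SE for the Mx genes and the other members, in which *mxd* lies near 0 (−0.24, and 0.23 with the authors' library totals), *mxg* is below 0 and the other Mx genes lie above it.

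*isg15* encodes a ubiquitin-like protein that is conjugated to other proteins during the interferon response. It was the most abundant member in both genotypes, with 4.30, 8.72 and 35.1 RPKM (324, 638 and 2926 counts) against 66.2 and 63.1 RPKM (5864 and 5353 counts). *lmo1*-/- replicate 3 reached 54.3% of the *TATA/TATA* mean, the highest share of any member, while replicates 1 and 2 were at 6.65% and 13.5%. The log2 fold change of 1.64 ± 0.74 (SE) did not pass the edgeR test (adjusted p = 0.137). It passed without *lmo1*-/- replicate 3 (2.77, adjusted p = 0.00684) and in DESeq2 (adjusted p = 0.0383), and in limma on log2(RPKM + 0.1) (adjusted p = 0.0404) and on log2(RPKM + 1) (adjusted p = 0.0345). *isg15* made up 51.1%, 71.3% and 62.8% of the summed member RPKM in *lmo1*-/- and 26.4% and 24.9% in *TATA/TATA*.

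*rsad2* encodes viperin, a radical-SAM enzyme that in mammals makes a chain-terminating nucleotide used against viral RNA polymerases. It had 12, 11 and 225 counts in *lmo1*-/- and 1662 and 1887 counts in *TATA/TATA*, or 0.112, 0.106 and 1.90 RPKM against 13.2 and 15.7 RPKM. Replicates 1 and 2 of *lmo1*-/- were alike and replicate 3 was 17.4 times their mean, the largest such ratio among the members. The log2 fold change was 4.0 ± 1.12 (SE, edgeR adjusted p = 0.0358). The call was lost without *lmo1*-/- replicate 1 or 2 (adjusted p = 0.0585 and 0.0870) and without *TATA/TATA* replicate 1 or 2 (adjusted p = 0.0923 and 0.111).

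*cmpk2*, which encodes a mitochondrial nucleotide kinase and neighbors *rsad2* in GRCz12tu with 0 protein-coding genes between, was looked at after its values were seen. It was at 0.496, 0.437 and 4.03 RPKM in *lmo1*-/- and at 7.95 and 8.50 RPKM in *TATA/TATA*, with the same order of libraries as *rsad2*. Its log2 fold change of 1.96 ± 0.88 (SE) did not pass the edgeR test (adjusted p = 0.135), and it passed without *lmo1*-/- replicate 3 (adjusted p = 0.000647) and in limma on log2(RPKM + 0.1) (adjusted p = 0.0349). The *rsad2* to *cmpk2* ratio of RPKM was 0.226, 0.243 and 0.472 in *lmo1*-/- and 1.66 and 1.84 in *TATA/TATA*, so the proportion of these neighbors differed between the genotypes more than that of *mxa* and *mxb*.

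*ifit8* belongs to the IFIT family of tetratricopeptide repeat proteins, which in mammals bind viral RNA ends. It had 4, 21 and 124 counts in *lmo1*-/- against 8085 and 8346 counts in *TATA/TATA*, or 0.0283, 0.153 and 0.794 RPKM against 48.7 and 52.5 RPKM. The 3 *lmo1*-/- libraries differed from each other by several-fold, yet even the highest, replicate 3, was at 1.57% of the *TATA/TATA* mean. The log2 fold change was 6.87 ± 0.99 (SE, edgeR adjusted p = 0.00364), which ranked 129 among the tested genes, and the call held under all 13 alternatives run. IFIT genes are a family of similar copies, and the division of reads between them was not tested.

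Of the RNA sensors, *ifih1* encodes MDA5, which recognizes long double-stranded RNA. It was at 1.70, 1.05 and 1.13 RPKM (394, 236 and 290 counts) in *lmo1*-/- and at 4.48 and 4.62 RPKM (1218 and 1204 counts) in *TATA/TATA*. *ifih1* was the only member in which *lmo1*-/- replicate 3 was not the highest by RPKM, and its *lmo1*-/- libraries lay closest together, within 1.62-fold. It had the smallest log2 fold change of the members, 1.35 ± 0.26 (SE, edgeR adjusted p = 0.0102), and the call was lost without *TATA/TATA* replicate 1 or 2 (adjusted p = 0.0698 and 0.0823).

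*dhx58* encodes LGP2, the member of the RIG-I family that lacks the signaling CARD domains and modulates the other sensors. It was at 0.942, 1.23 and 6.84 RPKM (228, 288 and 1830 counts) in *lmo1*-/- and at 33.7 and 35.2 RPKM (9598 and 9591 counts) in *TATA/TATA*. Replicate 3 of *lmo1*-/- again stood above replicates 1 and 2, at 19.8% of the *TATA/TATA* mean. The log2 fold change was 3.16 ± 0.78 (SE, edgeR adjusted p = 0.0238), and the call was lost without *lmo1*-/- replicate 2 (adjusted p = 0.0820) and without *TATA/TATA* replicate 1 or 2 (adjusted p = 0.0684 and 0.0732). The 2 sensors differed in proportion between libraries. The ratio of *dhx58* to *ifih1* RPKM was 0.553, 1.17 and 6.03 in *lmo1*-/- and 7.53 and 7.61 in *TATA/TATA*, so that replicate 3 had close to the *TATA/TATA* proportion at a lower level of both genes.

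The spread among the *lmo1*-/- libraries was large for most members and small in *TATA/TATA*. The ratio of the highest to the lowest *lmo1*-/- RPKM ran from 1.62 for *ifih1* and 2.26 for *mxc*, through 9.85 for *mxa*, to 49.5 for *mxe*. In *TATA/TATA* it ran from 1.01 to 1.18. On the log2 scale of TMM-normalized CPM (counts scaled to library size), the median range among the *lmo1*-/- libraries was 3.10 over the members, 0.59 over all tested genes and 0.89 over the genes called higher. Wide spread works against a call, so the genes called higher are a selected set. The range was 1.66 over neutrophil, 1.64 over lymphoid and 0.88 over macrophage markers. Over the interferon ligands it was 3.78, a median of only 2 tested genes that rests on few reads. In *lmo1*-/-, *ifnphi1* had 1, 4 and 16 counts and *ifng1-2* had 12, 0 and 7 counts. Over other antiviral effectors the range was 1.15, over sensing and relay 0.62, and over receptors and signal transduction 0.68. Between the *TATA/TATA* libraries the median range was 0.050 over the members and 0.090 over all tested genes, so it was narrow there for genes in general. A range over 2 libraries also tends to be smaller than one over 3.

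By RPKM, replicate 3 was the highest of the 3 *lmo1*-/- libraries in 8 of 9 members and in 55.2% of all tested genes. The step of replicate 3 was measured on the log2 scale from the mean of replicates 1 and 2 to the *TATA/TATA* mean. Replicate 3 covered a median of 53.1% of this distance over the members, 6.79% over all tested genes and 5.17% over all genes called higher. The median step was 42.8% over the tested genes of other antiviral effectors, 39.1% over neutrophil, 15.7% over macrophage and −9.44% over lymphoid markers. It was 29.0% over the 2 tested interferon ligands, which had few reads in *lmo1*-/-, 14.7% over sensing and relay, and 5.56% over receptors and signal transduction. The list medians, like that over all tested genes, include genes with little difference between the genotypes. There the step is unstable: it was 110% for *mxd* and −266% for *ikbkg*. Genes called higher had passed a test that spread within a genotype works against, which 2 of the members did not pass. The step differed by gene: it was 83.0% for *mxe* and 79.2% for *isg15*, between 51.0% and 59.1% for *mxa*, *mxb*, *rsad2* and *dhx58*, 36.2% for *ifit8*, 4.30% for *mxc* and −41.4% for *ifih1*. The step of replicate 3 was therefore not common to the members. With all libraries, 7 members and 2678 of the 13484 tested genes were called higher in *TATA/TATA*. Leaving *lmo1*-/- replicate 3 out, 9 of 9 members and 2856 tested genes were. Without *lmo1*-/- replicate 1 the counts were 6 members and 3355 genes, and without replicate 2 they were 3 members and 2456 genes. Without either *TATA/TATA* library, which leaves 1 of that genotype, fewer members and fewer of all tested genes were called higher.

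**Figure D3:**
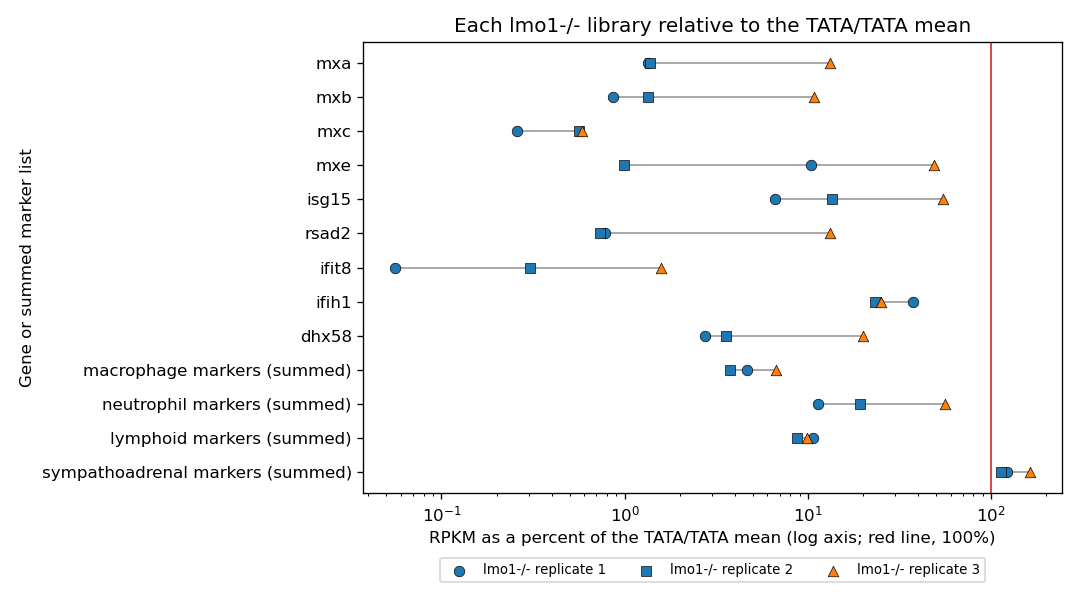
RPKM of each *lmo1*-/- library as a percent of the *TATA/TATA* mean on a log axis for the 9 genes and for 4 summed marker lists, with a red line at 100%. Replicate 3 (orange) lies to the right of replicates 1 and 2 for 8 genes, by little for *mxc*, and reaches 54.3% for *isg15* and 55.9% for the neutrophil list.

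Most tested leukocyte markers were higher in *TATA/TATA*, and some of them in *lmo1*-/- replicate 3 as well. Of 26 macrophage markers, 24 were called higher in *TATA/TATA* and 0 lower, and their summed expression was 163, 131 and 234 RPKM in *lmo1*-/- against 3426 and 3592 RPKM, so replicate 3 was at 6.66% of the *TATA/TATA* mean and replicates 1 and 2 at 4.66% and 3.74%. Of 12 tested neutrophil markers 8 were called higher and 0 lower, and the summed expression was 30.6, 52.0 and 151 RPKM against 263 and 278 RPKM, so replicate 3 was at 55.9%. Most of that sum came from *lyz* (lysozyme), *lect2l* and *npsn*, at 75.5, 39.7 and 16.2 RPKM in replicate 3, or 88.3%, 136% and 88.0% of the *TATA/TATA* mean, and none of these was called. The called neutrophil marker *csf3r*, the receptor for granulocyte colony-stimulating factor, was at 5.68% in replicate 3 and *mpx*, myeloperoxidase, at 17.3%. Of 7 tested lymphoid markers 6 were called higher and 0 lower, with summed expression of 4.21 to 5.12 RPKM in *lmo1*-/- and 44.3 to 51.9 RPKM in *TATA/TATA*. The marker not called, *rag2*, overlapped between the genotypes at 2.46, 2.21 and 2.59 RPKM against 2.22 and 2.69 RPKM. *rag1*, below the level needed for testing, overlapped too, with 25, 3 and 39 counts against 37 and 23. Of all tested genes 19.9% were called higher. The called markers *lck*, *zap70*, *cd4-1*, *il7r* and *foxp3a* reached the level needed for testing only through the *TATA/TATA* libraries. Some macrophage and neutrophil markers did as well, so the counts of calls are a description and not support. The B cell markers *pax5* and *ighz* were at 0 counts in every library of both genotypes, and *cd79b* had 0 counts in *lmo1*-/- and 2 in each *TATA/TATA* library. The B cell marker *cd79a* had 0, 5 and 0 counts in *lmo1*-/- and 15 and 31 counts in *TATA/TATA*, below the level needed for testing. None of the listed macrophage and neutrophil markers was at 0 in all *lmo1*-/- libraries. Erythroid markers did not follow: of 5 tested, 3 hemoglobin genes were called lower (*hbaa2* not with the authors' library totals, adjusted p = 0.0675) and 1 gene, *tfr1a*, higher in *TATA/TATA*, and the list summed to 57.1 to 70.1 RPKM in *lmo1*-/- and 66.5 to 67.7 RPKM in *TATA/TATA*. The part of these cell types in the values of the antiviral genes was not tested. In bulk libraries fewer cells of a type and less RNA per cell cannot be told apart.

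Of 6 listed interferon ligand genes, 2 reached the level needed for testing, and both were called higher in *TATA/TATA*. Both reached that level only through the *TATA/TATA* libraries, so their calls are a description and not support. *ifnphi1*, a zebrafish type I interferon, had 1, 4 and 16 counts in *lmo1*-/- and 394 and 370 counts in *TATA/TATA* (0.0185, 0.0763 and 0.268 RPKM against 6.20 and 6.08 RPKM). The order of its *lmo1*-/- libraries was that of *ifit8*, and the log2 fold change was 5.2 ± 0.72 (SE, edgeR adjusted p = 0.00325). *ifng1-2*, the type II interferon gamma, had 12, 0 and 7 counts in *lmo1*-/- and 115 and 157 in *TATA/TATA*, a log2 difference of 3.82 ± 0.88 (SE, edgeR adjusted p = 0.0188), and its call was lost without *TATA/TATA* replicate 1 or 2 (adjusted p = 0.0856 and 0.138). The other 4 listed ligand genes, *ifnphi2*, *ifnphi3*, *ifnphi4* and *ifng1-1*, had at most 5 counts in any library and were not tested.

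Among 24 tested genes of RNA and DNA sensing and relay, 14 were called higher, 0 lower and 10 were not called, with a median log2 fold change of 1.43 against −0.05 over all tested genes. Of all tested genes 19.9% were called higher, and some genes of this list reached the level for testing only through the *TATA/TATA* libraries. *irf7*, the transcription factor that amplifies interferon production, was at 0.288, 0.773 and 1.69 RPKM in *lmo1*-/- and at 120.7 and 134.8 RPKM in *TATA/TATA*, a log2 difference of 6.70 ± 0.65 (SE, edgeR adjusted p = 0.00107). Even *lmo1*-/- replicate 3 was at 1.32% of the *TATA/TATA* mean of *irf7*, where it reached 54.3% for *isg15*. The other 4 most abundant genes of the list, the helicase genes *ddx3a*, *ddx3b* and *dhx15* and the kinase scaffold gene *ikbkg*, were not called (adjusted p = 0.416 to 0.898), and the sign of their log2 fold change turned from negative to positive with the authors' library totals. *mavs*, the adaptor on which the RIG-I family signals, and *tbk1*, the kinase downstream of it, were chosen after their values were seen. They had log2 fold changes of 1.76 ± 0.14 and 2.02 ± 0.23 (SE, adjusted p = 0.000634 and 0.00164), and in neither did *lmo1*-/- replicate 3 stand apart: *mavs* was at 3.64, 3.79 and 4.33 RPKM and *tbk1* at 7.40, 3.95 and 6.84 RPKM.

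Of 18 tested genes of interferon receptors and signal transduction, 12 were called higher, 0 lower and 6 were not called, with a median log2 fold change of 1.53. The share called higher over all tested genes was 19.9%, and here too some genes were tested only through the *TATA/TATA* libraries. The receptor genes of the list were mostly not called, and they are named after their values were seen. *crfb1*, *crfb2* and *crfb6* had log2 fold changes of 0.22, 0.54 and −1.01 (edgeR adjusted p = 0.611, 0.132 and 0.0604). *ifngr1* was called higher (1.75, edgeR adjusted p = 0.00096). *irf1a*, a transcription factor gene of the list named after its values were seen, was below the level needed for testing and went the other way, with 89, 17 and 133 counts in *lmo1*-/- and 3 and 0 counts in *TATA/TATA*.

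*stat2*, a transcription factor gene of the type I response, was at 5.59, 4.94 and 22.5 RPKM against 38.6 and 38.7 RPKM, with replicate 3 again apart. Its log2 fold change of 1.43 ± 0.59 (SE) did not pass the edgeR test (adjusted p = 0.107) and passed without replicate 3 (adjusted p = 0.000743) and in DESeq2 (adjusted p = 0.0234). *socs1a*, a feedback inhibitor of cytokine signaling, was at 2.2, 8.40 and 17.5 RPKM against 38.1 and 45.5 RPKM, a log2 difference of 1.74 ± 0.69 (SE, edgeR adjusted p = 0.0999) that passed without *lmo1*-/- replicate 1 or 3 (adjusted p = 0.0226 and 0.0459), and in DESeq2 (adjusted p = 0.0202). *ptpn6*, the gene of the leukocyte phosphatase SHP-1, had no separation of replicate 3: it was at 1.92, 1.5 and 1.60 RPKM against 34.7 and 37.2 RPKM, a log2 difference of 3.96 ± 0.19 (SE, edgeR adjusted p = 0.000245).

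Of 34 tested genes of other antiviral effectors, 18 were called higher and 2 lower, with a median log2 fold change of 1.76. The 2 lower genes were *mxg* and the guanylate-binding protein gene *gbp3*, both named after their values were seen. The log2 fold change of *gbp3*, −0.72 ± 0.15 (SE, edgeR adjusted p = 0.0125), was −0.26 and not called with the authors' library totals (adjusted p = 0.346). The call of *gbp3* was also lost without *TATA/TATA* replicate 1 or 2 (adjusted p = 0.174 and 0.147). *isg20*, a 3′ exonuclease gene and with *mxd* among the most abundant of the list, overlapped between the genotypes at 28.2, 39.0 and 38.4 RPKM against 35.0 and 36.5 RPKM. Its log2 fold change was −0.45 (adjusted p = 0.159) and 0.02 with the authors' library totals. *stat2* belongs to this list as well. Among the 4 lists of other pathway genes, 3 genes stand in 2 lists, and the signal transduction list also shares a gene with the macrophage markers. With each gene counted once, 75 pathway genes were tested, 44 called higher and 2 lower. Their median log2 fold change was 1.68, where that of the members was 3.88. Of all tested genes 19.9% were called higher. In each list some genes, like 6 of the 9 members, reached the level for testing only through the *TATA/TATA* libraries. These counts and medians are thus a description and not support.

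**Figure D4:**
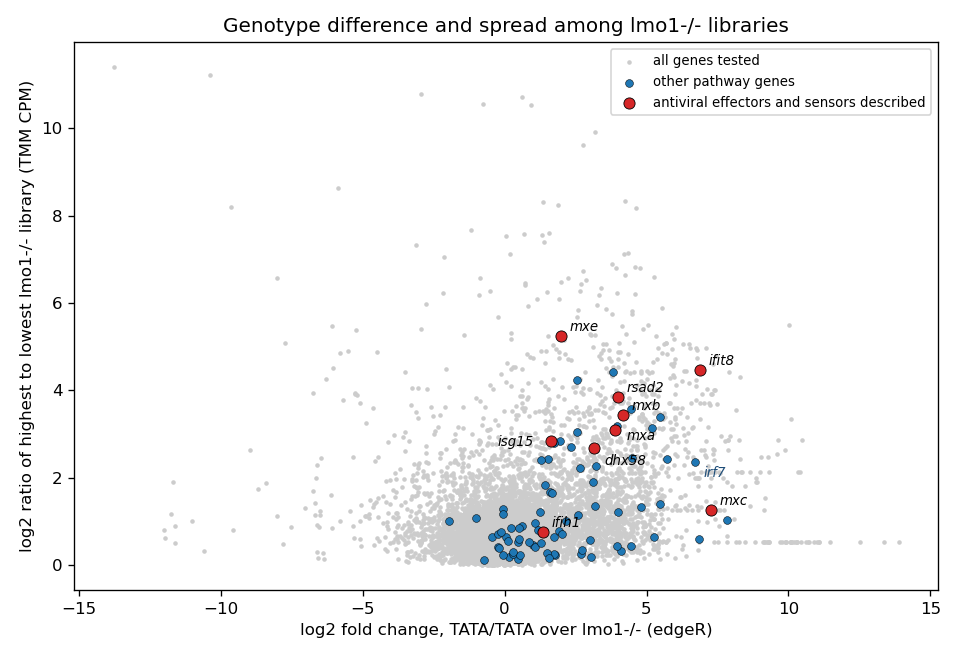
Log2 fold change of *TATA/TATA* over *lmo1*-/- (horizontal axis) against the log2 ratio of the highest to the lowest *lmo1*-/- library in TMM-normalized CPM (vertical axis) for the 13484 tested genes in gray, other pathway genes in blue and the 9 members in red. *ifih1* (0.76) and *mxc* (1.26) have the smallest ratios among *lmo1*-/- libraries of the members and *mxe* (5.24) the largest.

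The tested genes nearest in pattern to the mean of the 9 members were found by the root mean square distance between centered log2 TMM-normalized CPM over the 5 libraries. Among the nearest were *adgrg1*, an adhesion G protein-coupled receptor gene (distance 0.17), *ppfibp2b*, a liprin gene (0.17), *si:dkey-188i13.10* (0.24) and *ogfrl1* (0.25). *adgrg1* was at 0.0466, 0.0371 and 0.226 RPKM in *lmo1*-/- and at 2.14 and 2.32 RPKM in *TATA/TATA*. *si:dkey-188i13.10* was at 1.63, 1.24 and 7.95 RPKM against 66.1 and 58.6 RPKM. Of the members, *mxa* (0.25), *mxb* (0.38) and *dhx58* (0.41) lay nearest to the mean pattern and *ifih1* (1.86) and *ifit8* (1.82) farthest.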

How the data were processed

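RNA-Seq of EGFP+ cells sorted from *lmo1*-/- tumors (3 libraries) and *TATA/TATA* tumors (2 libraries) was analysed. The authors aligned strand-specific paired-end reads with HISAT2 2.1.0 to danRer10 (GRCz10) and made the deposited count of each gene by name with HTSeq, reverse strand. Their deposited RPKM divides that count by exon length and mapped reads, of which 70.9% to 76.6% were counted on genes. The sequencing instrument differs between the labels and the study's methods.

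Counts were tested in R 4.3.3 with the edgeR 4.0.16 quasi-likelihood F-test, two-sided, with TMM normalization and genotype as the only term. The test reports no SE, so each SE given is the absolute log2 fold change divided by the square root of the F statistic. A gene was tested where 2 or more libraries reached 1 RPKM. The smallest p an exact permutation of 3 against 2 libraries allows is 0.1, so no such test was used. Intervals and floors would cover counting error only, and none is printed. The members and all lists were chosen with earlier results of these data known. All members are named, as are the 5 most abundant genes of each pathway list, every listed ligand, the most abundant gene of a marker list and the 5 nearest in pattern. Some genes that this rule names are not reported here. Genes outside this rule are said to be so, except the cell type markers other than the most abundant of each list, which were also chosen after their values were seen. Alternatives were limma 3.58.1 on log2(RPKM + 0.1) and log2(RPKM + 1), DESeq2 1.42.0, other scalings and filters, the study's own threshold, a replicate block and leaving out each library. RefSeq symbols (GRCz12tu) matched 9 of 10 members, and *ddx58* by synonym. GRCz12tu is another build than the files', so no coordinates are given.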

Additional observations from a re-analysis of the deposited data

How the results depend on the processing

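Each of the 9 members kept its direction under every alternative run: of 114 member values, 91 stayed on the same side of the threshold, 8 newly passed it and 15 no longer did. Over the fits that each lacked 1 library, the genes called ranged from 1851 to 6456 (4933 with all libraries), the members called from 2 to 9 (7 with all) and the other pathway genes called from 30 to 54 (46 with all). Without a *TATA/TATA* library the lone one is assumed to vary like the *lmo1*-/- libraries. A minimum mean of 5 RPKM left 1828 genes called of 6173 tested, and 23 pathway genes of 39. The share of calls that were higher was 54.3% with TMM, 82.2% with the authors' library totals and 82.6% with limma on log2(RPKM + 0.1). The labels do not say whether replicate numbers pair the samples. Same-numbered libraries correlated at 0.0078 and −0.018 in their deviations from the genotype means. With 2 *TATA/TATA* libraries these deviations mirror each other, so the values cannot decide the pairing. With the number as a block, which uses replicates 1 and 2 only and so leaves out *lmo1*-/- replicate 3, 5241 genes, 9 members and 57 pathway genes were called with 1 residual degree of freedom. Counts of a few reads in *lmo1*-/- libraries limit the fold changes of *mxc*, *mxf*, *ifit8*, *rsad2*, *ifnphi1* and *ifng1-2*, among others.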
